A study of Homo sapiens with 24 samples.

Results

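A549 cells treated with dexamethasone (dex) for 3 hours were compared with cells given the vehicle ethanol (EtOH) for 3 hours, using 4 of the 24 RNA-seq libraries of the series, 2 per group. The 4 libraries were taken by their labels for treatment and duration. Dex raised the mRNA of known glucocorticoid (GC) target genes such as *FKBP5* and *ANGPTL4* 10.4-fold and 21.6-fold, and lowered that of the growth factors *EREG* and *TGFB2* 6.91-fold and 3.27-fold. Of the 15337 genes tested, 1290 were higher (8.41%) and 911 were lower (5.94%).

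A549 is an established cell line from a human lung adenocarcinoma, bought from ATCC, and all libraries came from this 1 line without any gene altered. The dex group received 100 nM dex dissolved in ethanol, and the EtOH group received the same volume of ethanol, at 0.02% by volume, so that both groups carried the solvent. Cells were grown in serum-containing F-12K medium to near confluence, and polyadenylated RNA was sequenced. A free-text label speaks of 1 hour of treatment in all libraries, whereas the label for duration, which was used, gives 3 hours for these 4. The labels call the replicates biological and number them 1 and 2, whereas the methods of the study state triplicates, and nothing says whether the cultures were grown on separate days, so p-values measure the spread between these samples.

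GCs enter the cell and bind the glucocorticoid receptor (GR), a transcription factor of the nuclear receptor family that is held in the cytoplasm by HSP90 and its co-chaperones. Once bound, GR moves to the nucleus, where as a dimer it binds a palindromic DNA motif and activates nearby genes, and where it also lowers the transcription of genes driven by AP-1 and NF-kappaB. In airway epithelium GCs are known for their anti-inflammatory action and as treatment in asthma.

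The letters of the palindrome, GNACANNNTGTNC, which read the same on both strands, were searched in RefSeq promoter windows of 300 bases, from 250 before to 50 after the gene start, on GRCh38.p14. Windows were matched by symbol for 10683 of the 15337 genes tested. The palindrome stood in 4 of 936 windows of genes higher in dex (0.427%), in 1 of 685 of genes lower in dex (0.146%), in 19 of all 10683 tested (0.178%) and in 106 of all 27305 windows (0.388%). The AP-1 motif TGACTCA was searched on both strands and shares no full match with the palindrome. It stood in 4.17% of windows of higher genes, 5.11% of lower genes, 3.29% of tested genes and 4.92% of all windows. In the 257 windows of genes over 2-fold higher, the AP-1 motif stood in 16 (6.23%) and the palindrome in 2 (0.778%). The 4 matches in genes higher in dex are shown with their neighbouring bases, since they are the windows in which the receptor's letters were found. Capitals mark the palindrome, and each is read on the strand of its gene.
*CHST7*, chrX:46573515-46573541, plus strand: tactggGTACATTCTGTACacacaggc
*MAP3K6*, chr1:27367093-27367121, minus strand: gcacagggGCACAGGCTGTTCcggaagcc
*EEF2K*, chr16:22206081-22206109, plus strand: ggagaaccGGACACTGTGTACtcagcagg
*RHOT2*, chr16:668009-668037, plus strand: ggcgcgccGCACAGCCTGTCCgctctggc

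These stretches begin 244, 152, 189 and 115 bases before the start of *CHST7*, *MAP3K6*, *EEF2K* and *RHOT2*, counted at the first base of the palindrome, and lie upstream of the transcribed sequence. *CHST7*, a carbohydrate sulfotransferase, had 260 and 278 counts in the dex libraries and 130 and 144 in the EtOH libraries (log2 fold change 1.04 ± 0.15, SE). *MAP3K6*, a kinase upstream of stress-activated MAP kinases, had 175 and 229 counts against 79 and 121 (1.08 ± 0.17). *EEF2K*, the kinase that inhibits elongation in protein synthesis, had 701 and 723 counts against 469 and 591 (0.50 ± 0.11). *RHOT2*, a mitochondrial transport protein, had 187 and 225 counts against 138 and 182 (0.43 ± 0.15), and its call, at an adjusted p of 0.0686 in edgeR, was lost without any 1 of the 4 libraries, at adjusted p between 0.131 and 0.332. None of these 4 genes is among the classical GC targets below.

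The libraries held between 9764159 and 11887526 counts at 3 hours, against 6708864 to 13748598 over the series. The 10 most abundant genes took 9.59% to 10.6% of the counts, and mitochondrially encoded genes took 4.39% to 5.15%. The biological coefficient of variation between replicates was 8.04%. The epithelial label of A549 was checked against *EPCAM*, *CDH1*, *KRT7*, *KRT8*, *KRT18* and *KRT19*, which were all detected, with a summed level of 7296 to 8580 CPM (read counts divided by the TMM-scaled library size) in dex and 4187 to 4802 in EtOH. Summed levels of leukocyte markers were 7.02 to 8.79 CPM in dex and 6.32 to 6.8 in EtOH, with *CD3E* at 0 in all 4 libraries. Endothelial markers summed to 0.720 to 1.03 CPM against 0.249 to 0.306, with *VWF* at 0. Fibroblast markers summed to 18.9 to 24.2 against 15.5 to 18.2, with *COL1A2* at 0. Other members were detected, and 3 leukocyte, 1 endothelial and 4 fibroblast markers had enough counts for the test. Of these only *COL1A1* was called, as higher in dex (log2 fold change 0.56, adjusted p = 0.0343, edgeR), and DESeq2 did not call it. In such bulk RNA, fewer cells carrying a transcript and less of it per cell cannot be told apart.

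Calls are genes with an edgeR quasi-likelihood adjusted p of at most 0.1. The study used the same false discovery rate, but with DESeq2 on single transcripts, so its counts are not comparable with these. The calls made up 14.4% of the genes tested, with 8.41% higher and 5.94% lower in dex. The changes reached further upward than downward, with 396 genes over 2-fold and 119 over 4-fold among the higher, and 164 and 29 among the lower. The median called change was 1.58-fold among higher and 1.45-fold among lower genes, so that most called genes moved by less than 2-fold. Over all genes tested, the median log2 fold change was -0.0041, its median size 0.20, and the 10th and 90th percentiles -0.42 and 0.49. Without EtOH replicate 1 the test called 1299 genes, without dex replicate 1 it called 1369, and DESeq2 called 1166. Calls made up 15.6% of 13144 protein-coding genes, 7.82% of 1138 antisense genes and 5.21% of 614 long intergenic noncoding RNAs.

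**Figure D1:**
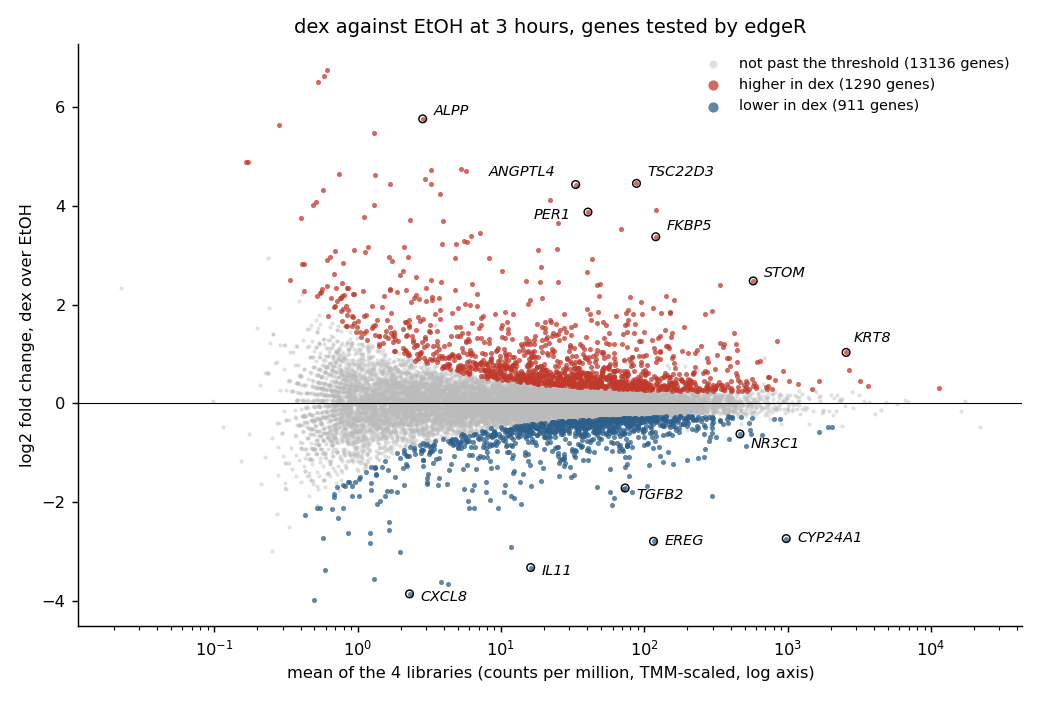
Each point is 1 of the genes tested, with the mean of the 4 libraries in TMM-scaled CPM on a log axis against the log2 fold change of dex over EtOH. The 1290 genes higher in dex (red) reach further from 0 than the 911 lower genes (blue), and *ANGPTL4*, *TSC22D3*, *FKBP5* and *PER1* stand near the upper edge while *EREG*, *CYP24A1* and *IL11* stand near the lower edge.

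Known targets of GCs were all higher in dex. Of 15 genes in this list, 14 had enough counts for the test and all 14 rose, with a median log2 fold change of 2.35 (-0.0041 over all genes tested). Among all genes tested, 8.41% were higher. As classical targets the genes were listed because this direction is known, and the list was written with earlier results of these data known. The count therefore describes these genes and is no test. The remaining gene, *ZBTB16*, a zinc finger repressor, had 3 and 1 counts in dex and 0 and 0 in EtOH.

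*TSC22D3*, a leucine zipper protein that mediates part of the anti-inflammatory action of GCs, stood at 176 and 161 CPM in dex and 7.55 and 7.71 in EtOH. Its log2 fold change was 4.45 ± 0.13 (adjusted p = 1.16e-21, edgeR), which is 21.9-fold. *FKBP5*, a co-chaperone that lowers the affinity of GR for hormone and lies on chromosome 6 at 35573585 to 35728583 (minus strand, GRCh38), stood at 223 and 216 CPM in dex and 20.6 and 21.4 in EtOH (3.37 ± 0.11; adjusted p = 1.57e-20, edgeR). *ANGPTL4*, a secreted inhibitor of lipoprotein lipase on chromosome 19 at 8363289 to 8374373 (plus strand), stood at 62.6 and 64.5 CPM against 2.24 and 3.48 (4.43 ± 0.18). In these 3 genes the lowest dex library was many times the highest EtOH library. *TFCP2L1*, a transcription factor of the CP2 family, stood at 234 and 221 CPM against 15.8 and 14.1 (15.2-fold). *PER1*, a repressor of the circadian clock, stood at 77.0 and 74.6 CPM against 5.20 and 5.06 (14.7-fold). The RNA-binding protein *ZFP36*, which speeds the decay of cytokine mRNAs, stood at 72 and 79.7 CPM against 8.57 and 11.1 (7.60-fold), and the transcription factor *KLF9* at 31.9 and 35.1 against 4.59 and 5.14 (6.8-fold).

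The other targets rose 2.69-fold to 3.81-fold from levels that were already well above the detection limit in EtOH. *BIRC3*, an inhibitor of apoptosis, stood at 177 and 189 CPM in dex and 51.5 and 44.3 in EtOH. *ERRFI1*, which binds and inhibits the EGF receptor, stood at 467 and 462 CPM against 123 and 128 (3.68-fold). *NFKBIA*, the inhibitor that retains NF-kappaB in the cytoplasm, stood at 239 and 236 CPM against 64.0 and 67.1 (3.60-fold). *DUSP1*, a phosphatase that switches off MAP kinases, stood at 563 and 681 CPM against 231 and 227 (2.70-fold), and *SGK1*, a kinase that promotes sodium uptake, at 215 and 237 against 79.5 and 87.7 (2.69-fold). *CEBPD*, a transcription factor, rose 3.13-fold and the metallothionein *MT2A* 3.05-fold. Reads of *MT2A* may match other metallothionein genes, and the placement of such reads is not given in the sources used here.

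**Figure D2:**
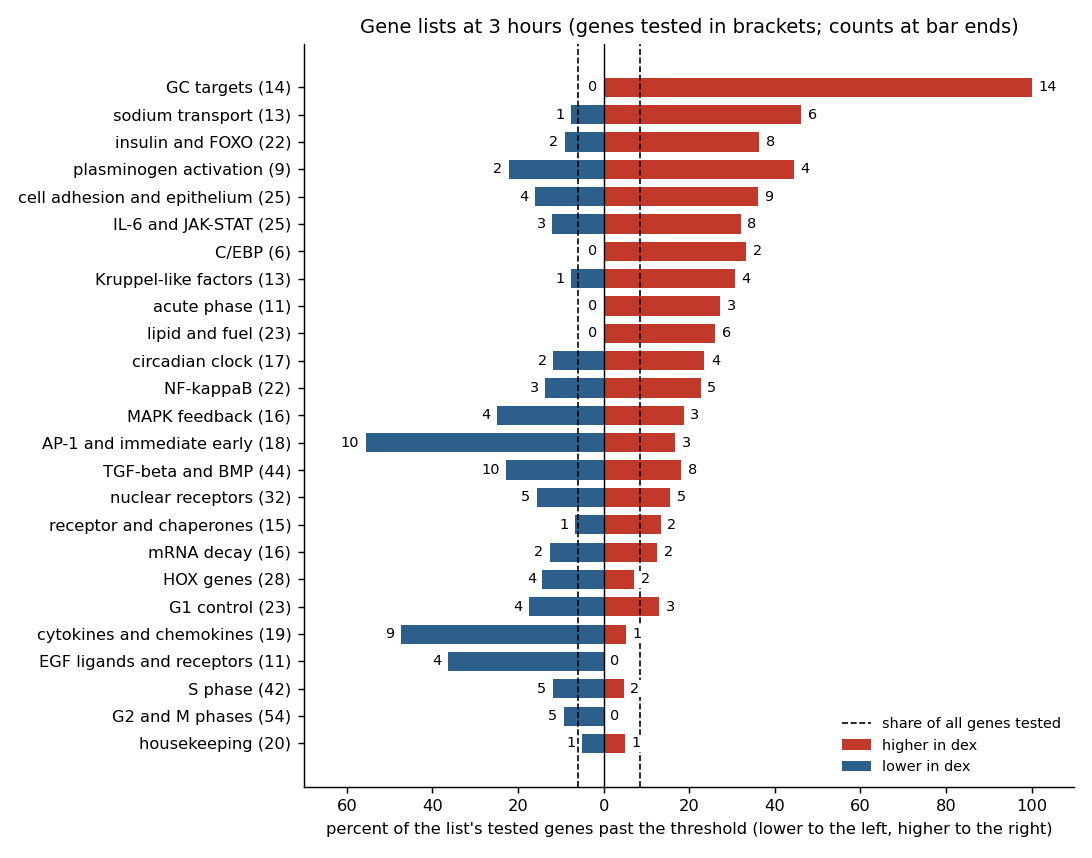
Bars give, for each of 25 gene lists, the percent of tested members higher (red, to the right) and lower (blue, to the left) in dex by edgeR at an adjusted p of at most 0.1, with counts at the bar ends and dashed lines at the shares of all genes tested, 8.41% and 5.94%. All 14 tested GC targets lie on the right, 10 of the 18 AP-1 and immediate early genes, 9 of the 19 cytokines and chemokines on the left, and 5 of 42 S phase genes and 5 of 54 G2 and M genes on the left.

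The 12 higher protein-coding genes with the largest fold change were chosen from those with at least 20 counts in each dex library and no overlap between the groups, and for 6 of them no EtOH library held over 3 counts. The largest change was in *ALPP*, the placental form of alkaline phosphatase, with 50 and 67 counts in dex and 1 and 1 in EtOH (ratio of depth-scaled counts 61.2, exact 95% interval 16.6 to 511). *ALPG*, the germ cell form, had 27 and 26 counts against 1 and 0 (ratio 55.4, interval 9.53 to 2230). The genes lie next to each other on chromosome 2, at 232378534 to 232382889 and 232406843 to 232410714 (GRCh38), and are near-identical copies, so reads of one may have been counted on the other. *NSG1*, a protein of neuronal endosomes, had 60 and 57 counts against 2 and 3 (ratio 24.5, interval 10.2 to 76.8), and *DNAJC15*, a mitochondrial co-chaperone, 43 and 91 against 3 and 2 (ratio 28.0, interval 11.7 to 87.7). *RASD1*, a small GTPase known for its induction by dex, had 29 and 24 counts against 0 and 2 (ratio 27.7, interval 7.30 to 235), and *CILP*, a protein of cartilage matrix, 25 and 43 against 2 and 1 (ratio 23.7, interval 7.78 to 118). These intervals cover counting error only.

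The rest of the 12 had more counts in EtOH. *STAC2*, an adaptor protein of calcium channels, had 83 and 130 counts in dex and 2 and 6 in EtOH (26.9-fold), and *EDN3*, a peptide of the endothelin family, had 118 and 110 against 2 and 7 (25.9-fold). *CDH16*, a cadherin of kidney epithelium, had 66 and 63 counts against 4 and 2 (21.6-fold). *CDKN1C*, an inhibitor of cyclin-dependent kinases, had 74 and 75 counts against 2 and 6 (19-fold). *TSC22D3* and *ANGPTL4* complete the group, and they were the members with the highest counts in dex. Leaving out 1 EtOH library moved the fitted log2 fold changes of the first 4 genes by over 1.5 times in fold. Without EtOH replicate 2 they went from 4.75 to 5.55 for *STAC2*, 4.70 to 5.66 for *EDN3* and 4.25 to 5.04 for *CDKN1C*. For *CDH16* it went from 4.43 to 5.14 without EtOH replicate 1. Among the genes with at most 3 counts in each EtOH library, *ALPG* went from 5.47 to 7.81 without EtOH replicate 1 and to 4.48 without EtOH replicate 2. *RASD1* went from 4.63 to 3.86 and 7.71, in the same order. *CILP* went from 4.45 to 5.11 without EtOH replicate 1, while *ALPP*, *NSG1* and *DNAJC15* did not move this far.

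**Figure D3:**
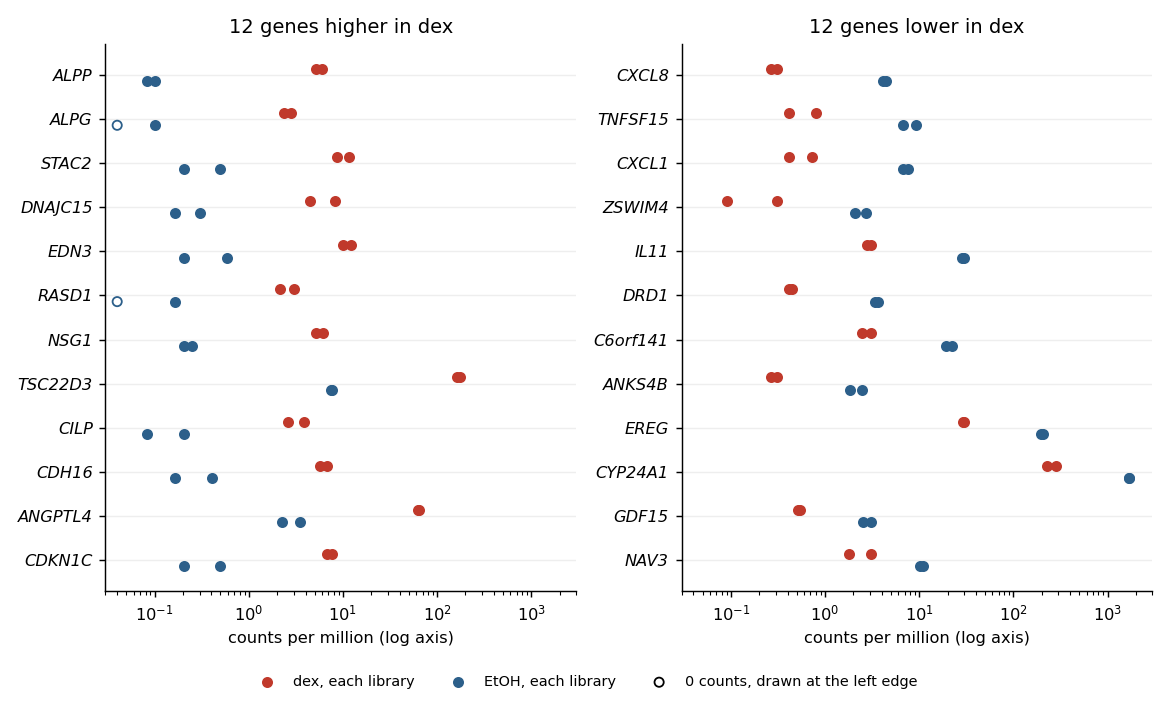
Points are TMM-scaled CPM in each of the 2 dex (red) and 2 EtOH (blue) libraries at 3 hours, on a log axis with open symbols for libraries at 0. The 24 genes were chosen among those without overlap between the groups, and the highest levels are those of *CYP24A1*, at 1698 and 1696 CPM in EtOH.

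The 12 lower protein-coding genes with the largest fold change included a chemokine pair, an interleukin and several receptors and ligands. *CYP24A1*, the enzyme that breaks down the active form of vitamin D, had the highest level among them, with 230 and 282 CPM in dex and 1698 and 1696 in EtOH. It fell 6.66-fold (log2 fold change -2.73 ± 0.11; adjusted p = 5.85e-19, edgeR). *TNFSF15*, a TNF-family ligand, had 4 and 9 counts in dex and 91 and 81 in EtOH (12.6-fold lower). *ZSWIM4* had 3 and 1 counts against 27 and 25 (ratio 12.4, exact 95% interval 4.57 to 47.3). *DRD1*, a dopamine receptor, had 4 and 5 counts against 33 and 44 (7.98-fold lower). *C6orf141* had 24 and 34 counts against 188 and 271 (7.51-fold lower). *ANKS4B*, a protein of microvilli, had 3 and 3 counts against 24 and 22 (ratio 7.33, interval 3.12 to 21.0), and *NAV3*, a microtubule-binding protein, 30 and 20 against 99 and 131 (4.36-fold lower). *CXCL8*, *CXCL1*, *IL11*, *EREG* and *GDF15* also belonged to the 12 and are described with their families.

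The receptor itself was lower after dex. *NR3C1*, which encodes GR, stood at 355 and 382 CPM in dex and 542 and 581 in EtOH, a fall of 0.62 ± 0.09 on the log2 scale, or 1.53-fold (adjusted p = 1.29e-05, edgeR). Among the 15 tested genes for GR and its chaperones, 2 rose and 1 fell, with a median log2 fold change of 0.034. The shares of all genes were 8.41% and 5.94%. The higher members were *FKBP5* and *DNAJB1*, a co-chaperone of HSP70 (0.62 ± 0.10). *HSP90AA1*, the inducible HSP90, stood at 4280 and 4369 CPM against 4918 and 4446 and was not called (adjusted p = 0.508, edgeR). Summed over the list, the level was 10860 to 10970 CPM in dex and 10870 to 11690 in EtOH.

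The circadian clock runs as a loop in which CLOCK and BMAL1 (*ARNTL*) drive the *PER* and *CRY* genes, whose products repress them, while REV-ERB receptors close a further loop. Of 17 tested clock genes, 4 rose and 2 fell (against 8.41% and 5.94% of all genes), and the median log2 fold change was 0.018. Besides *PER1*, the REV-ERB gene *NR1D2* rose 2.79-fold, from 73.9 and 73.1 CPM in EtOH to 206 and 207 in dex (1.48 ± 0.10). *CRY2* stood at 12.4 and 10.5 CPM in dex and 6.42 and 4.81 in EtOH (2.04-fold), and *PER2* at 13.3 and 14.3 against 8.57 and 6.63 (1.82-fold). The repressor *BHLHE40* fell 1.80-fold, from 127 and 129 CPM to 73.3 and 69.7. Its relative *BHLHE41* was called lower at an adjusted p of 0.0982 in edgeR and was not called without EtOH replicate 1 (0.323), EtOH replicate 2 (0.111) or dex replicate 1 (0.556). *CLOCK* (log2 fold change -0.19) and *ARNTL* (-0.31) were not called. The members that rose were all on the repressing side of the loop, while the repressor *BHLHE40* fell.

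Signalling through the EGF receptor showed lower ligands and mixed feedback inhibitors. Of the 11 tested genes for ligands and receptors of the EGF family, 4 fell and none rose, against 5.94% lower among all genes, with a median log2 fold change of -0.31. *EREG* (epiregulin), on chromosome 4 at 74365143 to 74388751 (plus strand, GRCh38), stood at 29.1 and 29.8 CPM in dex and 198 and 207 in EtOH. Its log2 fold change was -2.79 ± 0.11 (adjusted p = 6.98e-19, edgeR). *AREG* (amphiregulin) stood at 6.41 and 4.41 CPM against 23.8 and 20.3 (4.12-fold lower). *NRG1*, the ligand of the sister receptors, stood at 47.9 and 48.4 CPM against 90.3 and 95.3 (1.94-fold lower), and *TGFA* at 7.76 and 7.65 against 15.7 and 14.8 (1.99-fold lower). The 4 called members were all ligands, while the receptors *EGFR* (log2 fold change 0.19, adjusted p = 0.241) and *ERBB2* (0.30, adjusted p = 0.104) were not called by edgeR.

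Of 16 tested feedback inhibitors of MAP kinase signalling, 3 rose and 4 fell, with a median log2 fold change of 0.011. The shares of all genes were 8.41% and 5.94%. The higher members were *ERRFI1*, *DUSP1* and *SPRY1*, an inhibitor of receptor tyrosine kinase signalling, which stood at 4.34 and 4.41 CPM against 1.22 and 1.41 (3.27-fold). *DUSP4*, a nuclear phosphatase for ERK, fell 3.17-fold, from 163 and 155 CPM in EtOH to 50.3 and 50.6 in dex (-1.67 ± 0.11). *SPRED1*, which restrains RAS, fell 1.68-fold, from 47.8 and 43.5 CPM to 27.4 and 27.3. Members of the same phosphatase family, *DUSP1* and *DUSP4*, thus moved in opposite directions. The other lower members, *SPRY4* and *DUSP8*, were not called without EtOH replicate 1 or dex replicate 1, which left 2 lower members in each case, and without dex replicate 1 there were 5 higher members.

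Cytokines and chemokines fell more than they rose by count. Of 34 such genes counted, 19 passed the filter on low counts. Of these 9 fell and 1 rose (against 5.94% and 8.41% of all genes), with a median log2 fold change of -0.49. *IL11*, an interleukin of the IL-6 family, stood at 3.10 and 2.79 CPM in dex and 30.0 and 28.6 in EtOH, a 9.99-fold difference (-3.32 ± 0.19). The neutrophil chemokine *CXCL8* had 3 and 3 counts in dex and 44 and 50 in EtOH (ratio 15.0, exact 95% interval 6.63 to 41.8). *CXCL1* stood at 0.414 and 0.720 CPM against 7.55 and 6.72 (12.2-fold lower), and *CXCL5*, a chemokine of the same group, at 204 and 212 against 324 and 310 (1.53-fold lower). The fold change thus differed widely among chemokines that act on the same receptor. *CCL2*, which attracts monocytes, stood at 4.86 and 5.31 CPM against 17.4 and 19.5 (3.65-fold lower). The growth factor of macrophages *CSF1* fell 2.22-fold and the IL-6 family cytokine *LIF* 2.18-fold.

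The member that rose was *CSF3*, the granulocyte colony-stimulating factor, with 10 and 12 counts in dex and 0 and 0 in EtOH, at least 7.67-fold higher when the EtOH group is set to 3 counts. DESeq2 did not call it. *IL15* and *IL18* were also called lower, but not without EtOH replicate 1 (adjusted p = 0.247 and 0.199, edgeR) or dex replicate 1 (0.268 and 0.256). *IL6* had 0 and 1 counts in dex and 1 and 2 in EtOH, too few for the test.

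Receptors of the IL-6 family were found in both directions. Of 25 tested genes of IL-6 and JAK-STAT signalling, 8 rose and 3 fell, with a median log2 fold change of 0.10. The shares of all genes were 8.41% and 5.94%. *IL6R*, the IL-6 receptor, stood at 32.3 and 30.8 CPM in dex and 7.55 and 6.8 in EtOH (4.37-fold). *LIFR* stood at 70.1 and 78.4 CPM against 37.6 and 37.8 (1.96-fold), and their shared partner *IL6ST* at 508 and 548 against 366 and 314 (1.54-fold). The oncostatin M receptor *OSMR* went the other way, with 115 and 113 CPM against 162 and 147 (1.36-fold lower). Among the inhibitors of the pathway, *SOCS1* had 13 and 17 counts in dex and 0 and 1 in EtOH (ratio 31.4, exact 95% interval 5.22 to 1280), while *SOCS5* fell 1.61-fold. The transcription factor *STAT3* rose 1.27-fold and the kinase *JAK1* 1.28-fold, of which the latter was not called without EtOH replicate 1 (adjusted p = 0.123, edgeR). *PIAS1* and *PIAS3*, SUMO ligases named as inhibitors of STATs, rose 1.41-fold and 1.5-fold.

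Of 22 tested NF-kappaB genes, 5 rose and 3 fell (against 8.41% and 5.94% of all genes), with a median log2 fold change of -0.093. *NFKBIA* and *BIRC3* were the higher members called under every alternative tried. *TNFAIP3*, a deubiquitinase that dampens NF-kappaB signalling, stood at 7.96 and 8.91 CPM against 3.77 and 5.64 (1.76-fold), and was not called without EtOH replicate 1 (adjusted p = 0.232, edgeR) or by DESeq2 (0.171). The number of higher members was 2 without EtOH replicate 1 and 3 without EtOH replicate 2 or dex replicate 1. *NFKB2*, the precursor of a DNA-binding subunit, fell 2.02-fold, from 22.5 and 19 CPM to 10.3 and 10.3. *NFKBIE*, a relative of *NFKBIA*, fell 2.10-fold, so that inhibitors of the same family moved apart. The main subunits *RELA* (log2 fold change -0.053) and *NFKB1* (-0.25) were not called.

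Of 16 tested genes for factors of mRNA decay, 2 rose and 2 fell, with a median log2 fold change of -0.16. The shares of all genes were 8.41% and 5.94%. *ZFP36* rose most, and its relative *ZFP36L2* rose 1.52-fold, from 65.6 and 56.8 CPM in EtOH to 91.5 and 95.5 in dex. The third relative, *ZFP36L1*, was called 1.28-fold lower, but not without EtOH replicate 2 (adjusted p = 0.172, edgeR) or dex replicate 1 (0.532), and *CNOT6L*, a deadenylase, was not called lower without EtOH replicate 1 (0.864). Counts of lower members ranged from 1 without EtOH replicate 1 or dex replicate 1 to 4 without dex replicate 2.

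Ligands, receptors and targets of TGF-beta and BMP signalling moved in both directions. Of 44 tested genes, 8 rose and 10 fell (against 8.41% and 5.94% of all genes), with a median log2 fold change of -0.14. Among the ligands, *TGFB2*, on chromosome 1 at 218346235 to 218444619 (plus strand, GRCh38), stood at 36.2 and 32.9 CPM in dex and 109 and 116 in EtOH. Its log2 fold change was -1.71 ± 0.11 (adjusted p = 3.04e-13, edgeR), while *TGFB1* (-0.18) was not called. *GDF15*, a stress-induced member of the family, fell 5.28-fold, from 2.55 and 3.07 CPM to 0.517 and 0.540. *INHBB*, a subunit of activin and inhibin, rose 2.14-fold, from 24.0 and 24.0 CPM to 50 and 53.4.

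Among receptors, *TGFBR1* rose 2.30-fold, from 274 and 255 CPM in EtOH to 583 and 640 in dex (1.20 ± 0.10), and the co-receptor *TGFBR3* rose 1.51-fold, while *TGFBR2* (log2 fold change 0.080) was not called. The signal transducer *SMAD3* fell 2.14-fold, from 304 and 337 CPM to 148 and 152, so that ligand, receptor and transducer of the same branch differed in direction. The ID proteins, targets of BMPs that block basic helix-loop-helix factors, were also split. *ID1* stood at 121 and 127 CPM in dex and 79.5 and 81.8 in EtOH (1.53-fold higher), whereas *ID2* stood at 87.4 and 108 against 209 and 177 (1.98-fold lower) and *ID4* fell 1.80-fold. Of the secreted and membrane-bound inhibitors, *FST* (follistatin) fell 3.90-fold, from 9.79 and 8.96 CPM to 2.07 and 2.70, and *BAMBI*, a decoy receptor, fell 1.88-fold. *SMAD7* was not called. The number of higher members fell to 5 without EtOH replicate 1 and to 4 without dex replicate 1.

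AP-1 factors and immediate early genes, which GR is known to restrain, fell more than they rose by count. Of 18 tested genes, 10 fell and 3 rose (against 5.94% and 8.41% of all genes), with a median log2 fold change of -0.79. Summed over the list, the level was 666 to 699 CPM in dex and 649 to 708 in EtOH, so the groups overlapped. Members of the FOS and JUN families were called in both directions. *IER3*, an early response gene, stood at 5.07 and 4.41 CPM in dex and 15.7 and 16.9 in EtOH (3.48-fold lower). *IER5* stood at 15.7 and 16.5 CPM against 38.8 and 38.6 (2.41-fold lower), and *IER2* at 10.3 and 8.73 against 21.1 and 23.6 (2.37-fold lower). The small Maf proteins *MAFK* and *MAFG* fell 2.19-fold and 1.86-fold. *JUN*, the founding AP-1 subunit, stood at 15.6 and 16.7 CPM against 26.5 and 28.6 (1.71-fold lower), and *FOSL1* fell 2.07-fold. The AP-1 subunit *JUNB* moved the other way, with 58.2 and 78.9 CPM against 36.6 and 31.4 (2.01-fold higher), as did *FOSL2*, with 267 and 275 against 177 and 170 (1.55-fold). *FOS* was also called higher, but not without EtOH replicate 2 (adjusted p = 0.276, edgeR) or dex replicate 1 (0.147). *JUND* was not called lower without EtOH replicate 2 (0.378), nor *FOSB* without EtOH replicate 2 (0.372) or dex replicate 2 (0.372).

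Among C/EBP factors, which cooperate with GR at many enhancers, 2 of 6 tested genes rose and none fell. For these and the next list, the shares of all genes were 8.41% higher and 5.94% lower. *CEBPB* stood at 88.0 and 106 CPM in dex and 43.4 and 40.3 in EtOH (2.31-fold), beside *CEBPD*. Of 13 tested Kruppel-like factors, 4 rose and 1 fell, or 2 without EtOH replicate 1, with a median log2 fold change of 0.19. Besides *KLF9*, *KLF6* rose 2.56-fold, from 77.7 and 65.2 CPM to 190 and 178, and *KLF4* rose 2.99-fold, from 4.59 and 5.56 to 15.6 and 15.2. *KLF10*, a gene induced by TGF-beta, fell 1.70-fold, from 172 and 128 CPM to 83.3 and 93.7. *KLF15*, known as a GC target in muscle and liver, stood at 32.9 and 28.3 CPM in dex and 24.5 and 48.9 in EtOH, with overlapping groups.

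Nuclear receptors other than GR were split evenly. Of 32 tested genes, 5 rose and 5 fell (against 8.41% and 5.94% of all genes), with a median log2 fold change of 0.0016. The thyroid hormone receptor *THRA* rose 2.31-fold, from 32.2 and 41.1 CPM to 84.3 and 86.5, and the retinoic acid receptor *RARA* rose 1.61-fold. *NR5A2*, an orphan receptor of liver and pancreas, fell 4.16-fold, from 102 and 89.3 CPM in EtOH to 21.5 and 24.6 in dex (-2.06 ± 0.12). *NR0B1*, a receptor without a DNA-binding domain that represses *NR5A* factors, fell 1.87-fold. *NR4A2*, an immediate early receptor, fell 3.44-fold at low counts and was not called without EtOH replicate 2 (adjusted p = 0.155, edgeR). Without dex replicate 1 the list held 3 higher members. Of 28 tested HOX genes, which set position along the body axis, 2 rose and 4 fell, with a median log2 fold change of -0.19. The shares of all genes tested were 8.41% higher and 5.94% lower, and with DESeq2 1 HOX gene was higher and 1 lower. *HOXA3* fell 1.86-fold, from 27.2 and 35.0 CPM to 16.9 and 16.9, and *HOXC13* rose 2.52-fold, from 3.47 and 4.23 to 7.55 and 12. The lower HOX genes were 2 without EtOH replicate 1 or dex replicate 1, and the higher 1 without EtOH replicate 2 or dex replicate 1.

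GCs are known to act on fuel use. Of 23 tested genes of lipid and fuel metabolism, 6 rose and none fell, with a median log2 fold change of 0.14. The shares of all genes were 8.41% and 5.94%. Beside *ANGPTL4*, *PDK4*, the kinase that shuts pyruvate out of oxidation, stood at 110 and 126 CPM in dex and 39.0 and 33.8 in EtOH (3.24-fold). The fatty acid activating enzyme *ACSL1* stood at 76.0 and 86.8 CPM against 27.9 and 25.6 (3.03-fold), and *ACSL3* rose 1.34-fold. Without EtOH replicate 2 or dex replicate 2, 1 member of the list was called lower.

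Of 22 tested genes of insulin and FOXO signalling, 8 rose and 2 fell, with a median log2 fold change of 0.15. The shares of all genes were 8.41% and 5.94%. *IRS2*, an adaptor of the insulin receptor, rose 3.53-fold, from 43.4 and 40.8 CPM to 148 and 151, while the sister adaptor *IRS1* fell 1.79-fold, from 47.5 and 43.2 to 24.0 and 26.9. The receptor *INSR* itself rose 1.91-fold. The transcription factors *FOXO3* and *FOXO1*, which insulin restrains, rose 2.64-fold and 2.31-fold, with *FOXO3* at 99.6 and 108 CPM against 39.7 and 38.6. *IGFBP1*, a binding protein for insulin-like growth factors, rose 2.88-fold, and *DDIT4*, an inhibitor of mTOR signalling, rose 1.72-fold. *IGFBP3*, the sister of *IGFBP1*, went the other way, from 379 and 313 CPM to 185 and 185 (1.88-fold lower).

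Sodium transport is a classical target of corticosteroids in lung epithelium, where it clears fluid from the airspace. Of 13 tested genes, 6 rose and 1 fell (against 8.41% and 5.94% of all genes), with a median log2 fold change of 0.32. Beside *SGK1*, the channel subunit *SCNN1A* stood at 17.1 and 16.5 CPM in dex against 4.79 and 6.72 in EtOH (2.86-fold). *NEDD4*, a ubiquitin ligase of the family that removes the channel from the membrane, rose 1.70-fold, from 300 and 283 CPM to 474 and 523. *ATP1B1*, a subunit of the sodium pump, fell 1.48-fold, from 217 and 200 CPM to 145 and 137. The channel subunit *SCNN1G*, called higher at an adjusted p of 0.0955 in edgeR, was not called without any 1 of the 4 libraries (0.144 to 0.280). Without EtOH replicate 2 the list held 2 lower members.

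Plasminogen activation leads to the dissolving of fibrin. Of 9 tested genes of this pathway, 4 rose and 2 fell (against 8.41% and 5.94% of all genes), with a median log2 fold change of 0.32. The highest log2 fold change was 1.31, in a member not reported by name. Summed over the list, the level was 4286 to 5043 CPM in dex and 3282 to 3401 in EtOH. The activator urokinase, *PLAU*, stood at 41.6 and 43.5 CPM in dex against 64.9 and 65.5 in EtOH (1.54-fold lower), and its receptor *PLAUR* fell 1.77-fold. *ANXA2*, a plasminogen-binding surface protein, rose 1.36-fold but was not called without dex replicate 1 (adjusted p = 0.180, edgeR), and the list then held 2 higher members. Of 25 acute phase genes 11 could be tested. Of these, 3 rose and none fell (against 8.41% and 5.94% of all genes), with a median log2 fold change of 0.21. The fibrinogen chain *FGA* rose 1.69-fold and complement *C3* 1.48-fold, from 55.2 and 64.1 CPM to 97.8 and 80.0.

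Among 25 tested genes of cell adhesion and epithelium, 9 rose and 4 fell, with a median log2 fold change of 0.089. The shares of all genes were 8.41% and 5.94%. *SNAI2*, a repressor of epithelial genes, stood at 13.3 and 15.8 CPM in dex and 2.24 and 1.58 in EtOH, a 7.69-fold difference (2.94 ± 0.24), and *ZEB2*, a repressor of the same kind, rose 1.98-fold. Of the keratins of simple epithelium, *KRT19* (log2 fold change 0.073) was not called, while *KRT8* rose, with 3786 and 3094 CPM against 1614 and 1725 (2.05-fold). *KRT18*, its partner, stood at 3539 and 3067 CPM against 1846 and 2267 (1.60-fold), and *KRT7* rose 1.58-fold. These 3 keratins made up most of the summed epithelial markers given above. Keratin genes have many pseudogene copies, and some of their reads may have been counted elsewhere. The tight junction protein *CLDN1* fell 1.81-fold, from 97.4 and 97.4 CPM to 56.9 and 51.2, and *CLDN2* and the keratin *KRT80* fell 1.55-fold each. The defining proteins of the epithelial and mesenchymal states, *CDH1* (log2 fold change 0.15) and *VIM* (-0.070), were not called.

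Genes of the cell cycle were counted by phase. Of 42 tested S phase genes, 2 were called higher and 5 lower, with a median log2 fold change of -0.066, and of 54 genes of the G2 and M phases none rose and 5 fell, with a median of -0.047. Among all genes tested, 8.41% were higher and 5.94% were lower. *EXO1*, a DNA repair exonuclease, stood at 46.0 and 47.7 CPM in dex and 68.7 and 66.7 in EtOH (1.45-fold lower). *HJURP*, the chaperone of centromeric histone, stood at 80.0 and 80.1 CPM against 113 and 122 (1.47-fold lower), and *ECT2*, a regulator of cytokinesis, fell 1.38-fold. The S phase calls dropped to 2 lower and 0 higher without EtOH replicate 1 and to 1 and 0 without dex replicate 1. The higher S phase call was 1 without EtOH replicate 2 or dex replicate 2. The G2 and M calls dropped to 2 without EtOH replicate 1 and 3 without dex replicate 1, and 1 gene of that list was called higher without EtOH replicate 2 or dex replicate 2.

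Of the 23 tested genes of G1 control, 3 rose and 4 fell, with a median log2 fold change of -0.066. For these and the housekeeping genes below, the shares of all genes were 8.41% higher and 5.94% lower. *CDKN1A*, an inhibitor of cyclin-dependent kinases, rose 2.44-fold, from 58.2 and 73.1 CPM in EtOH to 165 and 157 in dex, beside its relative *CDKN1C*. The cyclin *CCND3* fell 1.49-fold, from 67.4 and 76.5 CPM to 52.4 and 45.2. *CCND1* was called 1.26-fold higher, but not without EtOH replicate 2 (adjusted p = 0.178, edgeR). The lower members were 1 without EtOH replicate 1 and 2 without dex replicate 1. Of 20 housekeeping genes, 1 was called higher and 1 lower, with a median log2 fold change of 0.0063, and without EtOH replicate 1 neither was called. The higher one was *ACTB* (0.34), at an adjusted p of 0.447 in edgeR without that library. The lower call was also lost without dex replicate 1.

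Noncoding genes are given by the 3 with the smallest adjusted p in each direction. The antisense RNA *DDIT4-AS1* stood at 133 and 112 CPM in dex and 68.8 and 66.7 in EtOH (1.79-fold), close to the 1.72-fold of *DDIT4*, and *PXN-AS1* at 113 and 91.1 against 52.8 and 55.6 (1.87-fold). The use of strand in counting is not given in the sources used here, so reads of an antisense gene and its partner cannot be told apart where they overlap. *AC107959.1* stood at 11.7 and 11.5 CPM against 3.26 and 3.48 (3.40-fold). *MIR222HG*, host of a microRNA pair, stood at 2.48 and 5.31 CPM against 11.3 and 12.3 (2.99-fold lower, its log2 fold change going from -1.58 to -2.26 without dex replicate 2), and *LUCAT1*, a stress-induced RNA of lung cells, at 2.28 and 3.42 against 8.77 and 10.5 (3.38-fold lower). *AC006058.1* fell 1.67-fold.

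The comparison at 3 hours was set beside those at 1 and 5 hours, which used other libraries. At 1 hour 163 genes were called by edgeR (1.06%), of which 98 were higher (0.639%) and 65 lower (0.424%). That comparison holds the shallowest library of the series, dex replicate 2 of 1 hour (6708864 counts), and its part in the lower count was not tested. Of the 98 higher at 1 hour, 79 (80.6%) were also higher at 3 hours and make up 6.12% of the genes higher at 3 hours, while 1 was lower. Of the 65 lower, 50 (76.9%) were lower at 3 hours, 5.49% of those, and 3 were higher. At 5 hours 3833 genes were called (25%), 1849 higher (12.1%) and 1984 lower (12.9%). Of the genes higher at 3 hours, 759 (58.8%) were higher at 5 hours, 41% of the 5 hour list, and 27 genes higher at 5 hours were lower at 3 hours. Of the genes lower at 3 hours, 461 (50.6%) were lower at 5 hours, 23.2% of the 5 hour list, and 36 genes lower at 5 hours were higher at 3 hours.

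The effect of dex at 3 hours differed from that at 1 hour in 774 genes (5.05%) by edgeR's test of the interaction, being more positive in 433 (2.82%) and more negative in 341 (2.22%). *FKBP5* stood at 39.9 and 38.3 CPM after 1 hour of dex and 27.6 and 27.4 in EtOH, and its difference between the effects was 2.86 ± 0.15 on the log2 scale (adjusted p = 4.01e-09, edgeR). *AKAP13*, an anchoring protein that activates RhoA, stood at 608 and 529 CPM against 102 and 112 at 3 hours, and at 120 and 119 against 120 and 117 at 1 hour, where the groups overlapped. *FGD4*, an activator of CDC42, showed log2 fold changes of 0.48 and 3.53 at 1 and 3 hours, and *STOM*, a membrane protein, 0.64 and 2.48. *PER1* was already at 42.4 and 45.3 CPM in dex against 6.52 and 7.34 in EtOH at 1 hour. Among the lower genes, *TGFB2* stood at 112 and 109 CPM against 111 and 113 at 1 hour, and *NR5A2* at 79.0 and 73.9 against 84.8 and 77.5, so that the groups overlapped in both. *EREG* had started to fall at 1 hour, with 94.8 and 96.2 CPM against 163 and 150.

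The count of 774 rests on single libraries. It was 276 without EtOH replicate 2 of 1 hour, 320 without EtOH replicate 1 of 3 hours, 308 without dex replicate 1 of 3 hours and 1799 without dex replicate 2 of 1 hour, the shallowest library. Between EtOH at 3 hours and EtOH at 1 hour, 0 of the 15337 genes were called by edgeR (725 at an unadjusted p under 0.05) and 0 by DESeq2 (268). Between dex at 3 hours and dex at 1 hour, 2008 genes were called by edgeR (13.1%), 1096 higher (7.15%) and 912 lower (5.95%), and 1376 by DESeq2.

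**Figure D4:**
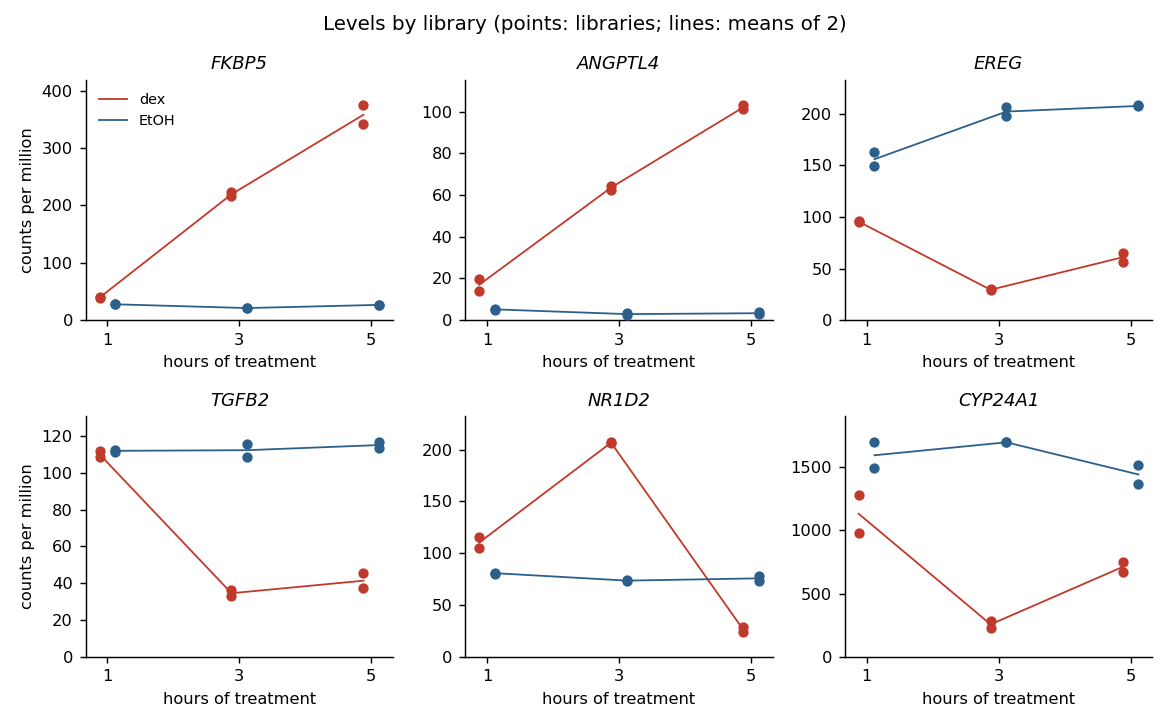
Points are TMM-scaled CPM in each library at 1, 3 and 5 hours, with lines through the means of the 2 dex (red) and 2 EtOH (blue) libraries. *FKBP5* rises from 39.9 and 38.3 CPM at 1 hour to 374 and 342 at 5 hours in dex, *NR1D2* goes above EtOH at 3 hours and below it at 5 hours, and *CYP24A1* is lowest in dex at 3 hours.

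The effect at 5 hours differed from that at 3 hours in 1409 genes (9.19%), being more positive in 517 (3.37%) and more negative in 892 (5.82%). The total was 810 without EtOH replicate 1 of 3 hours and 897 without dex replicate 1 of 3 hours. Several genes changed course between these times. *NR1D2* stood at 29.2 and 23.8 CPM in dex and 73.2 and 78.3 in EtOH at 5 hours, so that its log2 fold change went from 0.46 at 1 hour through 1.48 at 3 hours to -1.52 at 5 hours (difference from 3 hours -3.01 ± 0.16; adjusted p = 6.94e-15, edgeR). *CYP24A1* was lowest at 3 hours, with 1281 and 982 CPM in dex at 1 hour, 230 and 282 at 3 hours and 669 and 753 at 5 hours, against EtOH levels of 1370 to 1698 throughout. *EREG* followed a similar course, with log2 fold changes of -0.70, -2.79 and -1.77. In contrast, *FKBP5* (adjusted p = 0.173), *ANGPTL4* (0.385) and *TGFB2* (0.503) did not pass edgeR's test of a further change between 3 and 5 hours.

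In other genes the difference between dex and EtOH was larger at 5 hours. Complement *C3* went from a log2 fold change of 0.56 at 3 hours to 2.26 at 5 hours. At that time 9 of the 11 tested acute phase genes were called higher, against 12.1% of all genes. By the test of the difference, 8 of the 11 were more positive, against 3.37% of all genes. *ACSL1*, *MT2A* and *CALD1*, an actin-binding protein, went from 1.60, 1.61 and 1.20 to 3.17, 3.30 and 2.69. *IGFBP3* went from -0.91 to -2.64. All 42 S phase genes were lower at 5 hours, against 12.9% of all genes, with a median log2 fold change of -1.15. For 38 of the 42 the effect at 5 hours was more negative than at 3 hours, against 5.82% of all genes. The replication licensing factor *CDC6* stood at 111 and 114 CPM in dex and 134 and 118 in EtOH at 3 hours, and at 35.1 and 42.7 against 150 and 134 at 5 hours. *DTL*, an adaptor of a ubiquitin ligase active in S phase, went from -0.26 to -2.03 and the zinc finger gene *ZNF367* from 0.094 to -2.0. Of the 54 genes of the G2 and M phases, 47 were lower at 5 hours, with a median of -0.50. The effect was more negative than at 3 hours in 29 of them, against the same 5.82%.

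**Figure D5:**
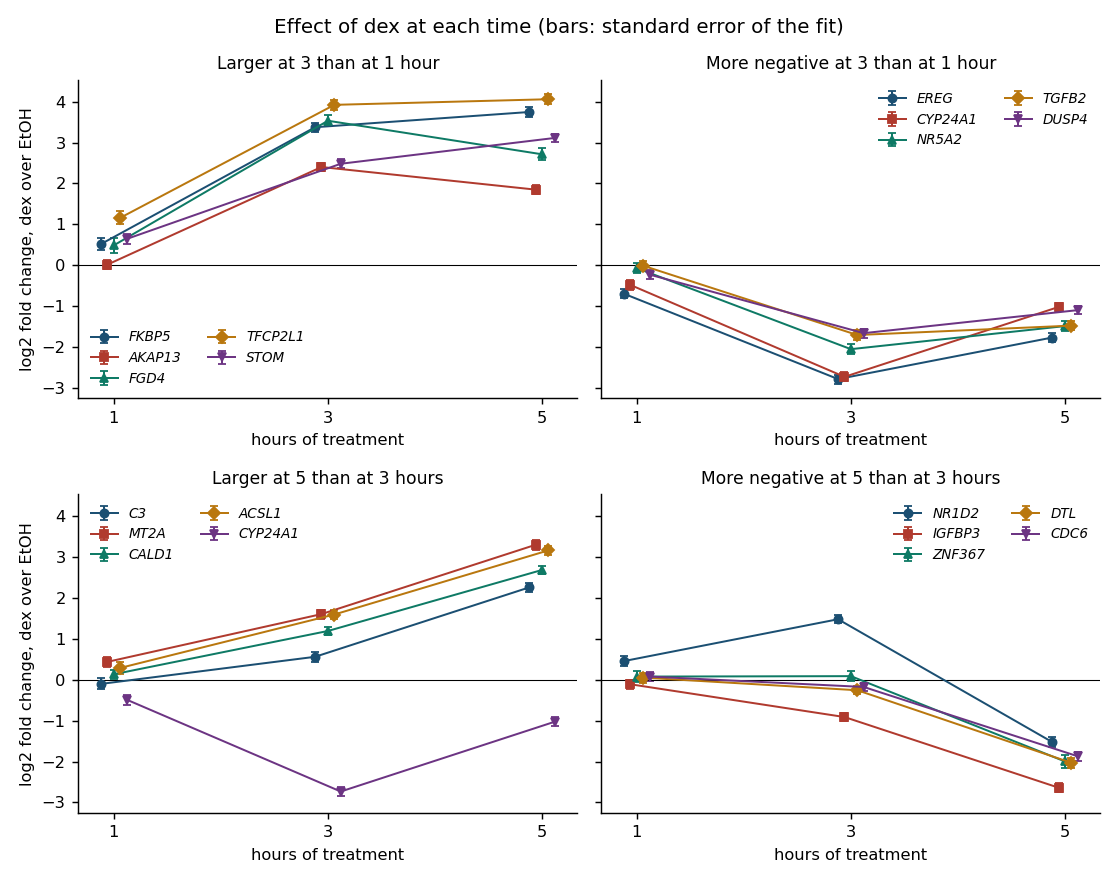
Points are log2 fold changes of dex over EtOH at 1, 3 and 5 hours and bars the standard errors of the fit, for the 5 genes with the smallest adjusted p in each direction of the tests between times. *FKBP5*, *AKAP13*, *FGD4*, *TFCP2L1* and *STOM* climb between 1 and 3 hours, and *NR1D2* crosses 0 between 3 hours (1.48) and 5 hours (-1.52).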

How the data were processed

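The authors sequenced stranded poly-A libraries as single-end reads of 50 bases, mapped them with Bowtie 0.12.9 to GENCODE 19 transcripts (hg19) and counted reads per transcript with samtools 1.3.1. The deposited values are raw counts, not scaled by depth or length. The placement of reads matching several transcripts and the use of strand are not given in the sources used here. The row for unplaced reads held 0 counts, and no column of sample values was left unused (0).

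Transcripts were joined to genes through GENCODE 29 (GRCh38) by identifier. Of 119207 transcripts, 110262, with 94.1% of the counts, were joined and summed over 33127 genes, and the other 8945 stayed as rows of their own. edgeR 4.0.16 (R 4.3.3) with filterByExpr over the 12 groups kept 19897 rows, of which 15337 were genes, and 375 of the 4560 rows without a gene were called but are left out of the counts. Library sizes were scaled by TMM, and the robust quasi-likelihood F-test was run on the 4 libraries of 3 hours, with Benjamini-Hochberg adjustment over all rows and a threshold of 0.1. Each SE was taken as log2 fold change over the square root of its F value. Interactions used the 8 libraries of both times. With 2 libraries per group, precision rests on dispersions shared between genes, and the script was tested on simulated data. For genes with at most 3 counts in each library of a group, ratios of counts scaled by library size are given with exact intervals at 95%, and a group at 0 was set to 3 counts.

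Genes named were *FKBP5*, *ANGPTL4*, *EREG* and *TGFB2*, the 12 with the largest change in each direction (at least 20 counts in each library of the higher group, no overlap), up to 4 members per direction of each list plus members described, 5 per direction of each interaction, 3 noncoding genes per direction, 5 near-silent genes, genes with opposite transcripts and 4 promoter matches. The 29 lists (632 genes) were written by hand, and members and lists were chosen with earlier results of these data known. *DUSP14*, *CCL5*, *SOCS7* and a few other list genes were not analysed here, and some genes counted in the lists are not reported by name. Promoter sequences are from RefSeq. Alternatives were DESeq2 1.42.0, its size factors, other filters, one fit over all libraries, the replicate block, transcripts in place of genes, a threshold of 0.05 and leaving out each library. Python 3.11.15, scipy 1.17.1, pandas 2.3.3 and matplotlib 3.10.9 were used.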

Additional observations from a re-analysis of the deposited data

Results flagged for a closer look

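Effects of dex that differed between neighbouring times, by edgeR's test of the interaction at an adjusted p of at most 0.1, are gathered here with their values. From 1 to 3 hours the effect became more positive in 433 genes and more negative in 341. The log2 difference of the effect, 3 hours minus 1 hour, was 3.04 for *FGD4*, 2.86 for *FKBP5*, 2.76 for *TFCP2L1*, 2.74 for *ANGPTL4*, 2.39 for *AKAP13* and 1.84 for *STOM*. It was -2.25 for *CYP24A1*, -2.09 for *EREG*, -1.98 for *NR5A2*, -1.70 for *TGFB2* and -1.43 for *DUSP4*.

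From 3 to 5 hours the effect became more positive in 517 genes and more negative in 892. The log2 difference, 5 hours minus 3 hours, was 1.70 for *CYP24A1*, 1.69 for *C3*, 1.69 for *MT2A*, 1.56 for *ACSL1*, 1.48 for *CALD1* and 1.01 for *EREG*. It was -3.01 for *NR1D2*, -2.10 for *ZNF367*, -1.78 for *DTL*, -1.74 for *IGFBP3* and -1.70 for *CDC6*. *CYP24A1* and *EREG* thus passed the test in opposite directions in the earlier and the later step, and both steps share the 4 libraries of 3 hours.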

How the results depend on the processing

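Of 184 named genes, 1692 of 1808 comparisons under the alternatives kept the direction and the side of the threshold. In 116 the call was lost, and none reversed. *BHLHE41* and *CLDN7*, among others, had no comparison under DESeq2 and are not among its losses. All 350 comparisons of the 25 named values between times kept both. Most of these values were chosen by the smallest p of the same tests, so this outcome is no test of stability. The 2201 genes called at 3 hours became 1166 with DESeq2 (all of them among the 2201), 3990 transcripts, and 1299 to 2576 with 1 library left out. The 1290 higher became 724 with DESeq2, 2420 transcripts and 815 to 1432 with 1 library left out, and the 911 lower became 442, 1570 and 484 to 1144. For 3 hours against 1 hour, the 774 genes became 1214 without a filter, 1352 transcripts, 447 at a threshold of 0.05 and 276 to 1799 with 1 library left out. The 433 positive became 694, 745, 269 and 175 to 989, and the 341 negative 520, 607, 178 and 94 to 810, in the same order. For 5 hours against 3 hours, the 1409 genes became 936 with DESeq2, 2277 transcripts, 934 at a threshold of 0.05 and 810 to 1547 with 1 library left out. The 517 positive became 878 transcripts, 313 at 0.05 and 272 to 615, and the 892 negative 586 with DESeq2, 1399 transcripts and 538 to 932. The cause of these shifts was not tested, except that transcripts are more numerous than genes and 0.05 is the stricter threshold. Medians of marker lists at low counts, with 1 library left out, ran from -1.13 to 0.0766 for fibroblasts, from -0.0265 to 0.87 for endothelial cells and from -0.0232 to 0.25 for leukocytes, so that each changed sign. Genes with few counts, such as most acute phase genes, could not be tested at this depth.

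Nothing in the labels makes the replicate numbers mark pairs, and the deviations of same-numbered libraries correlated at -0.0588 at 3 hours, 0.135 at 1 hour and 0.026 at 5 hours, so the numbers were not treated as pairs. A fit with the numbers as a replicate block called 1867 genes at 3 hours, 747 for 3 hours against 1 hour and 1530 for 5 hours against 3 hours.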

Other observations

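Among 56380 transcripts tested singly, 2 genes had transcripts called in opposite directions by edgeR. In *TMEM14B*, a small membrane protein gene with 9 tested transcripts, ENST00000467317.1 stood at 7.14 and 5.85 CPM in dex and 2.65 and 4.48 in EtOH (log2 fold change 0.81 ± 0.25, adjusted p = 0.0480). The transcript ENST00000379542.5 stood at 23.5 and 31 CPM against 41.5 and 33.9 (-0.48 ± 0.14, adjusted p = 0.0398), while the summed gene was not called (-0.25, adjusted p = 0.173). In *ASPH*, an aspartate hydroxylase gene with 17 tested transcripts, ENST00000522349.1 was higher (0.44, adjusted p = 0.0542) and ENST00000445642.3 lower (-0.35, adjusted p = 0.0456), and the summed gene was not called (-0.23, adjusted p = 0.138). How reads shared between transcripts of a gene were placed is not given in the sources used here, and its part in these values was not tested.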
